A study of Mus musculus with 20 samples.

Results

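Colonoids from Tnfr2-/- mice were compared with WT colonoids during the first 3 days after passage. The comparison used the 12 libraries collected on days 1, 2 and 3 post-passage, out of 20 in the series, chosen by their labelled day and genotype. There were 6 WT and 6 Tnfr2-/- libraries, with 2 per genotype and day. The Tnfr2-/- animals carried a whole-body deletion of Tnfr2 (official symbol Tnfrsf1b, strain B6.129S2), and the WT animals were C57BL/6. The labels give no age, and the study's culture methods name young adult mice of both sexes. Crypts of the colon were grown in Matrigel with Intesticult medium without further treatment, passaged, filtered through a nylon mesh and seeded again. The labels number the replicates 1 and 2 and do not say outright that a replicate is a mouse. Replicate numbers were taken to name the mouse, which gives 2 mice per genotype. The 3 early libraries of a mouse were then repeated samples of 1 animal. The deletion was not restricted to the epithelium, and fibroblasts accompany such cultures. In bulk RNA, fewer cells of a type and less RNA per cell cannot be told apart.

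TNFR2 is a receptor for tumour necrosis factor. It has no death domain, in contrast to TNFR1 (gene Tnfrsf1a), and recruits TRAF adaptors that feed into both branches of NF-kappaB signalling. It is best known from T cells and other immune cells, and colonic epithelium can express it too. Colonoids re-form from fragments before absorptive and secretory cells reappear, so the early days ask which genes already differed at that stage.

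Expression is given as normalised expression, the deposited transcript abundance (TPM divided by a size factor per library) summed per gene. Differences are on the log2(value + 1) scale, Tnfr2-/- minus WT, with the standard error (SE) of the fit. A gene is called where the adjusted p of the limma fit over all tested genes was under 0.05. Per library, 13007 to 13374 genes reached a value of 1, and from 7.338% to 11.249% of the sum fell on the top 10 genes. No duplicate libraries were found. The deposited values hold no read counts per library, and the counting error of low values is therefore not stated. All 12 epithelial and all 18 fibroblast marker genes were measured, and none was called. The fibroblast markers summed to between 2899 and 5919 in WT and between 4051 and 6108 in Tnfr2-/- libraries, and the epithelial markers to between 12500 and 20650 and between 15250 and 21610. Of 14 immune markers, 7 stayed under 1 in every library and Adgre1 and Tyrobp were at 0 throughout. Of 8 endothelial markers, 6 stayed under 1 everywhere.

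Tnfrsf1b itself (chr4:145213463-145246870, minus strand, GENCODE M21 on GRCm38) was lower in every Tnfr2-/- library. Its WT values were 18.98, 13.4 and 11.1 in mouse 1 and 16.4, 15.1 and 14.5 in mouse 2 on days 1, 2 and 3. The Tnfr2-/- values were 4.19, 4.06 and 3.70 in mouse 1 and 2.71, 2.89 and 5.52 in mouse 2. The groups did not overlap, and the difference was -1.72 (SE 0.192, adjusted p = 0.00147). Transcript remained in the knockout, where the coding transcript Tnfrsf1b-201 averaged 3.618 of a gene mean of 3.845, so the values check the labels by level and say nothing of the protein. Without Tnfr2-/- mouse 1 the difference was -1.79 with an adjusted p of 0.0501.

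Over the 3 early days, 119 of 13417 tested genes differed by the call rule (0.887%). Tnfr2-/- colonoids had the higher level in 68 of them (0.507%) and the lower level in 51 (0.38%). All 119 differed in the same direction on each of the 3 days, and 77 differed by more than 1 on the log2 scale, 37 upward and 40 downward. The 6 values of 1 genotype lay entirely on one side of the other 6 in 70 of the called genes, and in 169 genes (1.26%) overall. The median difference over all genes was -0.01, with 48.0% of genes higher. Of the 119, 41 were called without any single library, and 13 without any single mouse: Gm46223, Gm5900, Me3, Miga1, Pgm5, Podxl, Rpl34, Rpl34-ps1, Serpinf1, St6galnac2, Tbx2, Zfp990 and Znf41-ps. Each of the others lost its call without at least 1 of the 4 mice. On the means of the mice, 2 against 2, only Gm5900, Penk, Plagl1, Rpl34 and Rpl34-ps1 were called, with 1094 genes at an unadjusted p under 0.05. An exact permutation of the 4 mice cannot give a p under 0.333.

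**Figure D1:**
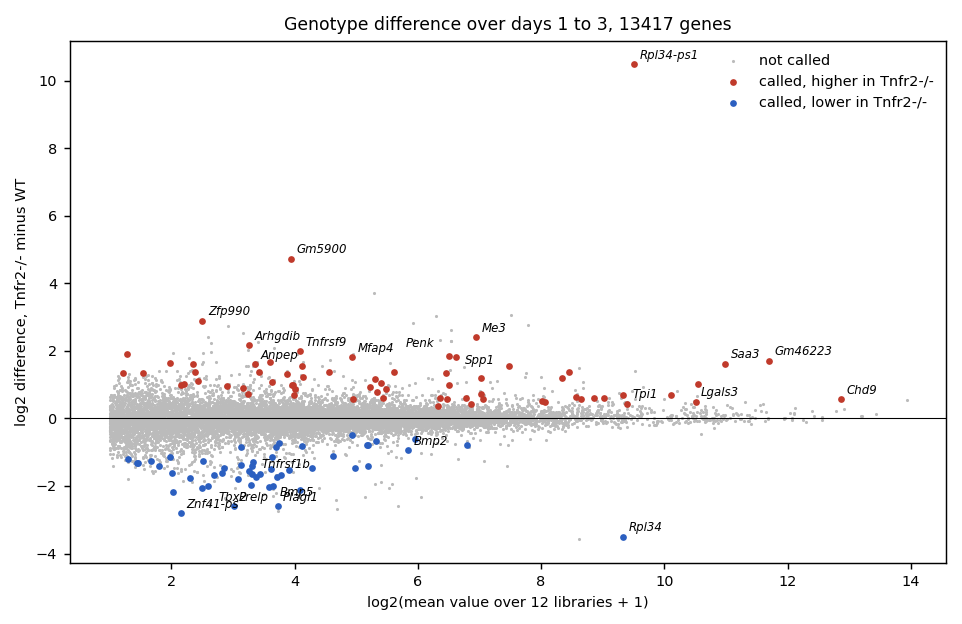
Log2 difference between genotypes over days 1 to 3 (vertical axis) against the log2 of the mean value plus 1 (horizontal axis) for 13417 genes. Coloured points are the 119 called genes; Rpl34-ps1 at 10.48 and Gm5900 at 4.73 stand farthest above 0 and Rpl34 at -3.51 farthest below among the called genes.

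The widest differences belonged to 2 processed pseudogenes and to 1 of the genes from which they were copied. Rpl34-ps1 (chr6:71124610-71124963), a copy of the ribosomal protein gene Rpl34, was listed at 0 in all 6 WT libraries. In Tnfr2-/- libraries it stood at 1437, 1382 and 1677 in mouse 1 and at 967, 1675 and 1594 in mouse 2. Rpl34 (chr3:130726831-130730398), which encodes a protein of the large ribosomal subunit, went the other way, from 1182 ± 101 to 107 ± 33.6 (SD, n = 6 each; adjusted p = 4.62e-06). Gm5900 (chr7:104949915-104950289), a copy of Lamtor3, was at 0 in 5 WT libraries and at 0.638 in the other, against 17.5 to 38.3 in Tnfr2-/- libraries (difference 4.73, SE 0.238, adjusted p = 1.58e-06). Lamtor3, which encodes a scaffold of the Ragulator complex on lysosomes, ranged from 58.7 to 78.4 in WT and from 50.8 to 71.1 in Tnfr2-/- libraries.

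Each pseudogene differs from its parent gene at 2 positions of the coding stretch, which spans 354 bases in Rpl34 and 375 in Lamtor3. The differences are T132C and C318G in Rpl34-ps1 and C111T and G336A in Gm5900, counted from the A of the start codon, with the base of the parent gene first. Within this stretch, reads of the pair differ at these positions alone, while the leading Rpl34 transcript of 480 bases also extends beyond the 354 bases it shares with Rpl34-ps1. The stretches around them, from the GENCODE M21 transcripts, are shown because the base in capitals is where gene and pseudogene differ.
Rpl34: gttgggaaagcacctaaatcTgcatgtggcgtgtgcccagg
Rpl34-ps1: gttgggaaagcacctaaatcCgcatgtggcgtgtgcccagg
Rpl34: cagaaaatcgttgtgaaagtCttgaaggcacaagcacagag
Rpl34-ps1: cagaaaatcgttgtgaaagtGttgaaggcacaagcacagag
Lamtor3: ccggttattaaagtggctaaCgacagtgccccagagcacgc
Gm5900: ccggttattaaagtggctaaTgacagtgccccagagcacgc
Lamtor3: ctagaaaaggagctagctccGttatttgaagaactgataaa
Gm5900: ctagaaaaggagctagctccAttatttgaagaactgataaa

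Expression was summed over Rpl34 and its near-identical copies and weighted by full transcript length, as a rough stand-in for reads. The sum was 588 in WT (522 to 675) and 579 in Tnfr2-/- libraries (422 to 652). The sum was thus 0.983 times the WT sum, while most of it was assigned to the gene in WT and to the pseudogene in Tnfr2-/- libraries. The unweighted sum was 1.32 times the WT sum, since the pseudogene transcript is shorter and TPM divides by length. For Lamtor3 and Gm5900 the weighted sum was 73.1 in WT and 83.3 in Tnfr2-/- libraries, a ratio of 1.14.

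**Figure D2:**
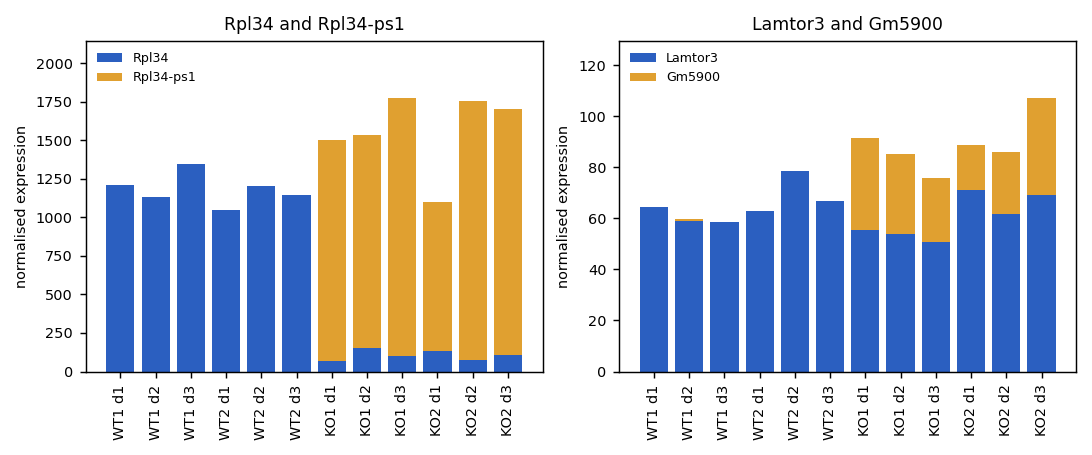
Normalised expression of Rpl34 with Rpl34-ps1 (left) and Lamtor3 with Gm5900 (right) stacked for each of the 12 libraries (horizontal axis, with genotype, mouse number and day d1 to d3; KO is Tnfr2-/-). In WT bars the pseudogene part is 0 except 0.638 of Gm5900, while in Tnfr2-/- bars Rpl34-ps1 holds between 967 and 1677.

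Several other called genes rested on transcripts that do not encode their protein. Of 115 called protein-coding genes, Apobec3, Ccbe1, Chd9, Me3 and Paxbp1 had at most 10.62% of their expression on protein-coding transcripts. Between 27.67% and 48.5% lay on them in a further 6 genes, namely Ctsb, Enpp1, Epb41l3, Gm16867, Ide and Serpinf1. Me3, which encodes a mitochondrial malic enzyme, rose from 40.3 ± 16.2 to 205 ± 40.8 (SD, n = 6; difference 2.40, SE 0.215, adjusted p = 0.000272), but 98.25% of this was 1 processed transcript that shared 483 bases at 96.89% identity with Gm42974. Its coding transcripts averaged 0.0729 in WT and 0 in Tnfr2-/- libraries. For Chd9, a chromatin remodeller, 99.83% lay on a processed transcript, and its coding transcripts averaged 9.84 in WT and 9.66 in Tnfr2-/- libraries. Apobec3, a cytidine deaminase that restricts retroviruses, was called higher (difference 0.68, adjusted p = 0.0124), with 85.19% of its expression on a retained-intron transcript. Among the leading transcripts of the 119 genes, 24 shared at least 150 bases at 95% identity or more with a transcript of another gene on the same strand. Only called genes were searched, so the share among all tested genes is not known. Values of genes with such a shared stretch are uncertain where reads could be divided between them.

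Of 183 tested genes within 10 Mb of Tnfrsf1b, 7 were called (3.83%), against 111 of 13233 elsewhere (0.839%). Dhrs3, Fbxo6, Hspb7, Tnfrsf9 and Zfp990 were higher, and Zfp984 and Znf41-ps lower. Zfp990, a zinc finger gene, lay between 0 and 1.10 in WT and between 5.18 and 15.02 in Tnfr2-/- libraries (difference 2.89, SE 0.258, adjusted p = 0.000272). Znf41-ps, an unprocessed pseudogene of the same cluster, ran from 3.81 to 11.5 in WT and was listed at 0 in 5 of the 6 Tnfr2-/- libraries (-2.80, adjusted p = 0.000498). Neither pair of groups overlapped. Zfp984 fell by 1.49 on the log2 scale (adjusted p = 0.0183). The cluster is built of near-copies: Znf41-ps shares its whole length of 2413 bases with Zfp992 at 99.34% identity, and the length-weighted sum over Znf41-ps and 4 such copies was 0.627 times the WT sum, although the unweighted sum was 1.29 times.

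The other called genes near Tnfrsf1b shared no such stretch with another gene. Dhrs3, a retinal reductase that lowers retinoic acid, was at 14.1, 2.83 and 1.44 in WT mouse 1 and 7.13, 4.31 and 2.76 in WT mouse 2 on days 1, 2 and 3. The Tnfr2-/- values were 20.4, 8.36 and 18.5 in mouse 1 and 24.4, 13.9 and 15.6 in mouse 2, so Dhrs3 overlapped between genotypes over the 3 days but not within a day (1.68, SE 0.298, adjusted p = 0.0271). Dhrs3 was not called on protein-coding transcripts alone. Hspb7, a small heat shock protein, lay between 0.121 and 0.652 in WT and between 0.929 and 3.21 in Tnfr2-/- libraries. Fbxo6, a ubiquitin ligase subunit that binds glycoproteins, rose from 33.3 ± 4.98 to 50.8 ± 5.13 (SD, n = 6; adjusted p = 0.0295). The strain carries a 129S2 origin in its name, and whether the genes around Tnfrsf1b differ in sequence between these mice was not tested.

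**Figure D3:**
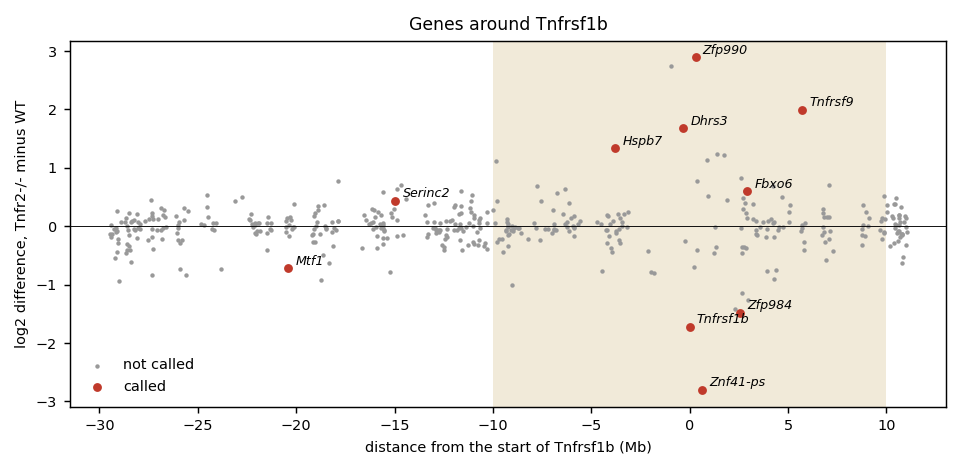
Log2 difference between genotypes (vertical axis) against the distance of each tested gene from the start of Tnfrsf1b in Mb (horizontal axis). The shaded band spans 10 Mb on either side and holds 183 tested genes besides Tnfrsf1b, 7 of them called; large points are called genes.

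Of 20 tested members of the TNF receptor family, Tnfrsf9 was the one called besides Tnfrsf1b, beside 0.887% called over all tested genes. Tnfrsf9 (CD137) is a costimulatory receptor that, like TNFR2, signals through TRAF2, and it lies 5.70 Mb from Tnfrsf1b. WT values were 11.2, 4.34 and 1.07 in mouse 1 and 14.6, 5.997 and 2.61 in mouse 2 on days 1, 2 and 3. Tnfr2-/- values were 21.1, 10.4 and 18.0 in mouse 1 and 36.5, 33.7 and 33.4 in mouse 2. Both genotypes were therefore separated within each day, although WT day 1 overlapped Tnfr2-/- day 2. The difference was 1.99 (SE 0.409, adjusted p = 0.0485), with 1.06 on day 1 and 3.23 on day 3, a change that did not pass the test (adjusted p = 0.602). The call was lost without WT mouse 1 or either Tnfr2-/- mouse (difference 1.46 to 2.53, adjusted p up to 0.323). Tnfrsf1a ranged from 59.8 to 220 in WT and from 118 to 188 in Tnfr2-/- libraries (0.37, adjusted p = 0.689). Tnfrsf11b, the decoy receptor osteoprotegerin, differed by 0.81 (adjusted p = 0.141).

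None of the 7 tested TNF ligands, 17 TNF receptor adaptors and IKK genes, or 15 NF-kappaB subunits and feedback genes was called. At an unadjusted p under 0.05 there were 0, 0 and 3 of them. Among 28 NF-kappaB target genes, 17 were higher with a median of 0.263, and Saa3 was called (3.57%, against 0.887% of all tested genes). Saa3, an acute-phase apolipoprotein made by injured epithelium and stroma, stood at 389, 1173 and 617 in WT mouse 1 and at 328, 2559 and 1486 in WT mouse 2. In Tnfr2-/- libraries it was at 1200, 2393 and 2792 in mouse 1 and 1527, 4974 and 4891 in mouse 2 (difference 1.62, SE 0.312, adjusted p = 0.0386). WT mouse 2 on day 2 exceeded 3 of the Tnfr2-/- values. Saa3 lost its call without WT mouse 1 or either Tnfr2-/- mouse (1.25 to 1.99, adjusted p up to 0.338), and the median of the list was 0.0579 without WT mouse 1. Nfkbia, the feedback inhibitor of NF-kappaB, differed by 0.42 (adjusted p = 0.366), and Lcn2, the siderophore-binding lipocalin, by 1.05 (adjusted p = 0.501).

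Penk, Spp1, Mfap4 and Hp, which encode secreted products, were among the 12 named genes of largest rise. Penk, the precursor of the enkephalin opioid peptides, was at 107, 32.6 and 6.35 in WT mouse 1 and 101, 42.8 and 6.45 in WT mouse 2 on days 1, 2 and 3. In Tnfr2-/- colonoids it was at 243, 99.4 and 65.3 in mouse 1 and 221, 105 and 49.3 in mouse 2. The levels were lower on later days in both genotypes, and at each day the Tnfr2-/- values lay above the WT values (difference 1.85, SE 0.277, adjusted p = 0.0114). Spp1 (osteopontin, a matrix glycoprotein and cytokine) was at 92.4, 19.2 and 27.0 in WT mouse 1 and 63.8, 27.6 and 41.7 in WT mouse 2. Its Tnfr2-/- values were 177, 99.9 and 224 in mouse 1 and 118, 88.7 and 188 in mouse 2. WT day 1 of mouse 1 overlapped Tnfr2-/- day 2 of mouse 2, but no day overlapped within itself (1.82, SE 0.276, adjusted p = 0.0117). Mfap4, a microfibril protein of elastic fibres, rose from 11.7 ± 5.69 to 47.2 ± 30.6 (SD, n = 6; adjusted p = 0.0285). Hp (haptoglobin, which binds free haemoglobin) lay between 2.82 and 12.3 in WT and between 7.56 and 41.9 in Tnfr2-/- libraries (1.56, adjusted p = 0.0159). Without Tnfr2-/- mouse 1 or mouse 2 all 4 lost their call, with differences between 1.39 and 2.15. On protein-coding transcripts alone, Mfap4 and Hp lost their call, and Penk and Spp1 kept it.

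Arhgdib, Anpep and Ccn3 did not overlap between genotypes in any library. Arhgdib, a signalling inhibitor best known from blood cells, lay between 0.704 and 5.05 in WT and between 6.18 and 22.8 in Tnfr2-/- libraries (2.17, SE 0.310, adjusted p = 0.00800). Anpep (CD13), an aminopeptidase of brush borders and stromal cells, was at 13.01 to 15.9 in Tnfr2-/- and at 3.25 to 6.79 in WT libraries (1.61, SE 0.172, adjusted p = 0.00108). Ccn3, a matricellular protein, lay between 0.252 and 2.19 in WT and between 4.17 and 11.1 in Tnfr2-/- libraries (1.60, adjusted p = 0.0252). The early differences of Arhgdib and Anpep, when set beside the late ones (days 5 and 7 of the same mice), were 2.17 and 3.30 for Arhgdib and 1.61 and 0.31 for Anpep.

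Of the called genes, 51 were lower in Tnfr2-/- colonoids. Plagl1, an imprinted zinc finger factor that restrains growth, climbed in WT from 10.2 and 7.28 on day 1 through 23.8 and 17.0 on day 2 to 28.9 and 45.8 on day 3 in mice 1 and 2. In Tnfr2-/- colonoids it stayed between 1.81 and 3.79 in all 6 libraries. The difference was -2.60 (SE 0.334, adjusted p = 0.00425), and it was -1.65, -2.45 and -3.71 on the 3 days (change from day 1 to day 3, adjusted p = 0.418). Prelp, a leucine-rich proteoglycan that anchors basement membranes, lay between 2.72 and 30.1 in WT and between 0 and 3.05 in Tnfr2-/- libraries (-2.59, adjusted p = 0.00575), so that the lowest WT value lay inside the Tnfr2-/- range. Tbx2, a repressor of the T-box family, ran from 11.1 to 18.4 in WT and from 1.88 to 4.16 in Tnfr2-/- libraries (-1.97, SE 0.176, adjusted p = 0.000272). Pgm5, a muscle phosphoglucomutase relative found at adherens junctions, ran from 12.5 to 43.3 and from 2.20 to 12.5 (-2.11, adjusted p = 0.00425). The ranges of Pgm5 nearly met, the lowest WT value being 12.47 and the highest Tnfr2-/- value 12.46.

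The remaining genes of largest fall were spread over several roles. St6galnac2, a sialyltransferase of mucin-type glycans, fell from 8.199 ± 2.68 to 1.16 ± 0.375 (SD, n = 6; adjusted p = 0.00147). Scube1, a secreted EGF-domain protein, fell from 18.2 ± 4.58 to 3.86 ± 1.72 (adjusted p = 0.00727), and Col25a1, a membrane collagen, from 5.76 ± 2.38 to 0.434 ± 0.379 (adjusted p = 0.00219). Klk6, a serine protease of the kallikrein family, fell from 12.1 ± 6.61 to 2.86 ± 1.81 (adjusted p = 0.0312). None of these 4 overlapped between genotypes. Fgf1, a fibroblast growth factor without a classical signal peptide, and Scgb2b17, a secretoglobin, overlapped in single libraries and passed narrowly (adjusted p = 0.0491 and 0.0485). Scgb2b17 shares 423 bases at 99.29% identity with Scgb2b15. The cDNA gene 1190002N15Rik fell by 0.84 (adjusted p = 0.0286).

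Other called genes, singled out after their values were seen, included Tcf21, Foxf2, Eln, Serpinf1, Fbln2, Ltbp2, Aebp1 and Crabp1. Tcf21 and Foxf2, transcription factors of mesenchymal precursors, fell by 1.69 and 1.29 (adjusted p = 0.0142 and 0.0150), and Eln, the elastin gene, by 1.65 (adjusted p = 0.0114). Eln was not called on protein-coding transcripts alone. Serpinf1 (PEDF, a secreted inhibitor of vessel growth) rose from 89.8 ± 16.6 to 266 ± 48.5 (SD, n = 6; 1.55, SE 0.152, adjusted p = 0.000498), with WT values from 71.8 to 114 and Tnfr2-/- values from 199 to 321. Its leading transcript, with 52.17% of the expression, is a target of nonsense-mediated decay, and on protein-coding transcripts alone the difference was 1.57 (adjusted p = 0.00389). Fbln2 (fibulin 2), Ltbp2 (a latent TGF-beta binding protein relative) and Aebp1 (a collagen-binding protein) rose by 1.18, 1.33 and 1.00, and Aebp1 lost its call when the libraries were rescaled to the same sum (adjusted p = 0.0561). Crabp1, a carrier of retinoic acid inside cells, rose by 1.38 (adjusted p = 0.0150). The summed fibroblast markers overlapped between genotypes (medians 5391 in WT and 5115 in Tnfr2-/- libraries). Of the 18 markers, 11 were higher, with a median difference of 0.245. At an unadjusted limma p under 0.05, 6 were higher and 1 lower. The median was -0.092, 0.195 and 0.421 on days 1, 2 and 3. Pdgfra, the fibroblast receptor, went against the median of the list, at -0.42 (adjusted p = 0.451). The part of fibroblast number or state in these differences was not tested.

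**Figure D4:**
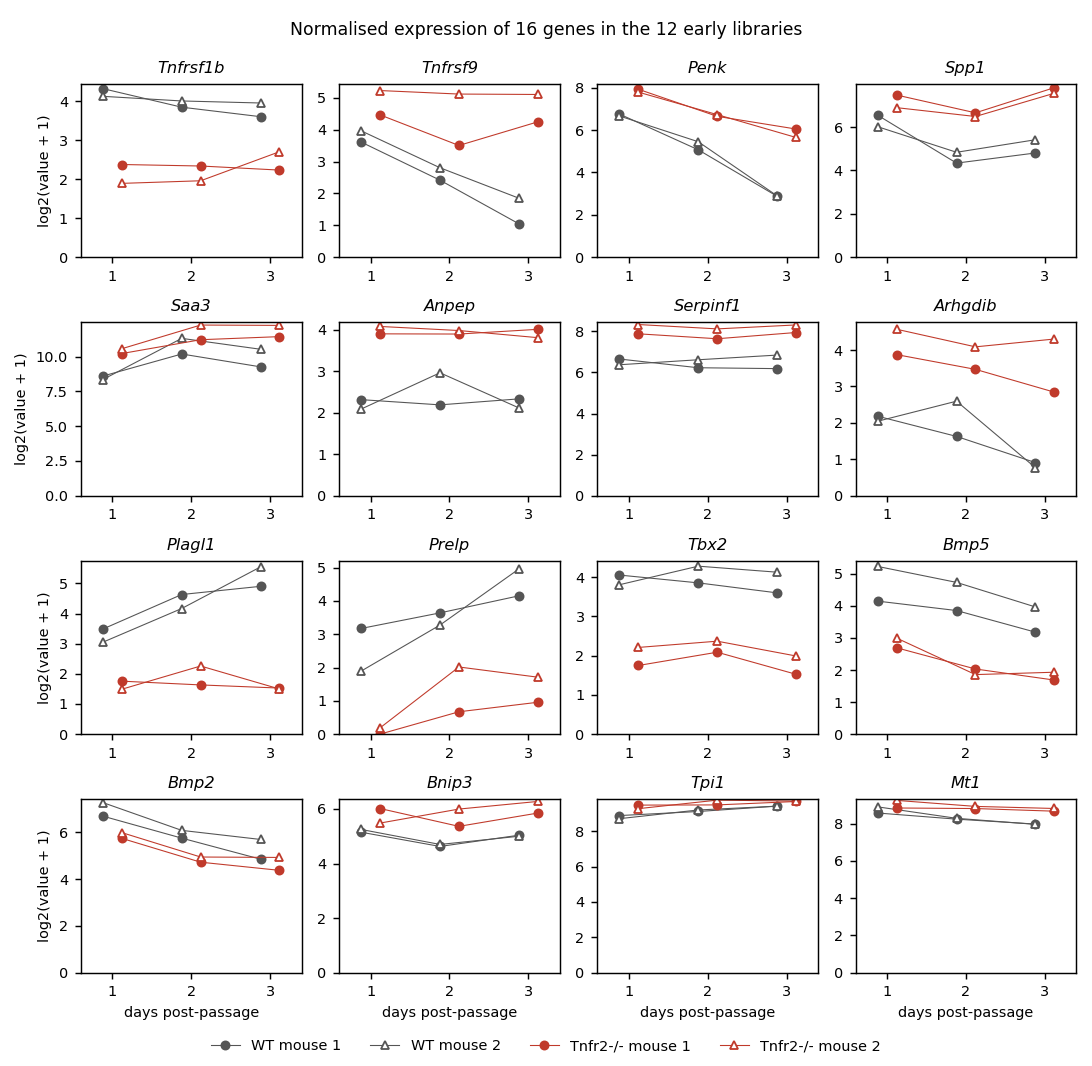
Log2(value + 1) of 16 called genes (1 panel each, vertical axis from 0) on days 1, 2 and 3 post-passage (horizontal axis) for WT mice 1 and 2 and Tnfr2-/- mice 1 and 2; each point is 1 library and lines join the libraries of a mouse. Plagl1 reaches 28.9 and 45.8 in WT on day 3 and no more than 3.79 in any Tnfr2-/- library, while Penk and Tnfrsf9 are lower on day 3 than on day 1 in both WT mice.

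Bone morphogenetic proteins (BMPs) are morphogens that stroma and surface epithelium supply and that favour differentiation over stemness in the crypt. Of 29 tested genes of the TGF-beta and BMP pathway, 2 were called, both ligands and both lower in Tnfr2-/- colonoids, while 19 of the 29 were higher and the median was 0.173. Over all tested genes, 0.887% were called and 0.38% were called lower. Bmp5 was at 16.8, 13.5 and 8.07 in WT mouse 1 and 36.6, 25.6 and 14.7 in WT mouse 2, against 5.47, 3.09 and 2.22 in Tnfr2-/- mouse 1 and 6.98, 2.62 and 2.81 in Tnfr2-/- mouse 2. The groups did not overlap (difference -1.99, SE 0.243, adjusted p = 0.00307). Bmp2 was at 103, 53.1 and 28.0 in WT mouse 1 and 155, 67.1 and 51.0 in WT mouse 2. Its Tnfr2-/- values were 52.8, 25.5 and 19.8 in mouse 1 and 62.8, 29.9 and 29.5 in mouse 2 (-0.94, SE 0.183, adjusted p = 0.0396). The WT value of mouse 1 on day 3 lay below 4 of the 6 Tnfr2-/- values, 1 of them from the same day. Bmp4 and Bmp7 differed by -1.26 and -0.69 without being called (adjusted p = 0.0885 and 0.314), and the BMP antagonist Grem1 by 0.74 (adjusted p = 0.319). Without either Tnfr2-/- mouse, Bmp2 and Bmp5 lost their call (adjusted p up to 0.404 and 0.117).

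After injury, colonic epithelium re-enters a state with fetal and YAP-linked genes. Of 28 regenerative and YAP-linked genes, 22 were higher in Tnfr2-/- colonoids and the median was 0.265, beside 48.0% higher over all tested genes. Spp1 and Ly6c1 were called higher and Crip2 lower (10.71%, against 0.887% of all tested genes). All 3 calls were lost without either Tnfr2-/- mouse (adjusted p up to 0.177, 0.274 and 0.271), that of Ly6c1 also on rescaling to the same sum (0.0562), and that of Crip2 also on protein-coding transcripts alone. Ly6c1, a GPI-anchored Ly6 protein, rose from 860 ± 443 to 1346 ± 663 (SD, n = 6; 0.69, SE 0.124, adjusted p = 0.0286), and it increased with the day in both genotypes, from 257 and 442 on day 1 to 1303 and 1351 on day 3 in WT mice. It shares 791 bases at 97.98% identity with Ly6c2, and the length-weighted sum of both was 1.60 times the WT sum. Crip2, a LIM-domain protein, fell by 0.79 (adjusted p = 0.0183) without overlap. Ly6a (Sca-1), the regenerative marker followed by the study, differed by 0.26 (adjusted p = 0.231), at 0.07, 0.32 and 0.39 on days 1, 2 and 3. Clu, a marker of revival stem cells, separated the WT mice rather than the genotypes, at 550, 285 and 265 in WT mouse 1, at 1989, 1507 and 1341 in WT mouse 2, and between 976 and 2258 in Tnfr2-/- libraries (0.81, adjusted p = 0.551). Without WT mouse 1 the median of the list was 0.0640.

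The fetal intestinal list used by the study had 273 tested genes, of which 181 were higher with a median of 0.133, beside 48.0% higher over all tested genes. The median was 0.0396 without WT mouse 1 and 0.0645 when the libraries were rescaled to the same sum. Its 5 called members (1.83%, against 0.887% of all tested genes) were Spp1, Ly6c1 and Cd68 upward and Crip2 and Ddit4l downward. Cd68, a lysosomal glycoprotein best known from macrophages, lay between 7.46 and 12.5 in WT and between 14.2 and 23.7 in Tnfr2-/- libraries (0.99, SE 0.169, adjusted p = 0.0237). Of the 3 immune markers that were tested it was the one called. The summed immune markers ran from 11.24 to 20.15 in WT and from 19.55 to 32.0 in Tnfr2-/- libraries (medians 15.83 and 26.62). Much of this sum was Cd68 itself, whose coding transcripts averaged 8.50 in WT and 16.9 in Tnfr2-/- libraries. The call of Cd68 was lost on protein-coding transcripts alone and without WT mouse 1 or either Tnfr2-/- mouse. Ptprc (CD45) stayed under 1 in every library. Psap (prosaposin), a gene outside the list that was singled out after its values were seen, rose from 297 ± 40.2 to 461 ± 44.9 without overlap (adjusted p = 0.0187).

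Of 25 tested glycolysis and hypoxia genes, 24 were higher in Tnfr2-/- colonoids and the median was 0.287, beside 48.0% higher over all tested genes. At an unadjusted p under 0.05, 15 of the 25 were higher, and 1610 of the 13417 tested genes differed in either direction. The median was 0.313, 0.347 and 0.261 on days 1, 2 and 3, and it stayed between 0.275 and 0.304 whichever mouse was left out. The 3 called genes were Bnip3, Pfkl and Tpi1, beside 0.887% called over all tested genes. Bnip3, a mitophagy receptor known as a hypoxia gene, ran from 23.7 to 37.0 in WT and from 40.2 to 76.6 in Tnfr2-/- libraries without overlap (0.87, SE 0.161, adjusted p = 0.0312). Pfkl, the liver-type phosphofructokinase, rose from 65.2 ± 18.9 to 97.1 ± 17.3 (adjusted p = 0.0485), and Tpi1 (triosephosphate isomerase) from 571 ± 110 to 768 ± 94.98 (adjusted p = 0.0386). Aldoa, Ldha and Eno1, which encode aldolase, lactate dehydrogenase and enolase, differed by 0.34, 0.28 and 0.25 without being called (adjusted p = 0.0715, 0.0935 and 0.135). All 3 calls were lost without Tnfr2-/- mouse 1, those of Pfkl and Tpi1 also without Tnfr2-/- mouse 2 and those of Bnip3 and Pfkl also without WT mouse 1 (adjusted p up to 0.199 for Bnip3, 0.380 for Pfkl and 0.287 for Tpi1). Bnip3 was not called on protein-coding transcripts alone. Pfkl and Tpi1 lost their call when the libraries were rescaled to the same sum, which moved the median of all genes to -0.0746 and left the list at 0.217.

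Slc16a3 (MCT4, the exporter of lactate), a gene outside that list that was singled out after its values were seen, was among the clearer differences. It was at 22.4, 12.1 and 28.3 in WT mouse 1 and 36.8, 20.9 and 43.7 in WT mouse 2, against 69.9, 50.9 and 72.2 in Tnfr2-/- mouse 1 and 62.2, 63.7 and 94.6 in Tnfr2-/- mouse 2. No WT value reached any Tnfr2-/- value (1.38, SE 0.194, adjusted p = 0.00724), and the call was lost without either Tnfr2-/- mouse (adjusted p up to 0.147). The core of the hypoxia response element, ACGTG on either strand, was searched in the 250 bases before the RefSeq start of each gene (build GRCm38.p6). It occurred in 15 of 23 genes of the list with a promoter (65.2%), in 4998 of 27025 genes overall (18.5%) and in 13 of 88 called genes (14.8%). The upstream bases of Bnip3 (chr7:138909507-138909756, minus strand) and Slc16a3 (chr11:120948817-120949066, plus strand) are shown because both genes were called without overlap, with matches in capitals. The 2 matches of Bnip3 are the 2 strands of one palindrome, while the upstream bases of Pfkl and Tpi1 held none.
Bnip3: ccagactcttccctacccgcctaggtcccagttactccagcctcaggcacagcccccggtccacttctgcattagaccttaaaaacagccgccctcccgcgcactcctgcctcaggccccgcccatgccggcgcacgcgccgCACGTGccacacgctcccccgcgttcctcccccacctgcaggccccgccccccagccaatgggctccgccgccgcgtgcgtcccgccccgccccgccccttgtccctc
Slc16a3: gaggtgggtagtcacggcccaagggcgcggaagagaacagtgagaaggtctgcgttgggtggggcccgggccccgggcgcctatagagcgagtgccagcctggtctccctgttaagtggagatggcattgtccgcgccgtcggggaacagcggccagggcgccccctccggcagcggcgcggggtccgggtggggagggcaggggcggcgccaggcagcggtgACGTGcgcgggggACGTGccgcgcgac

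Metallothioneins bind zinc and copper, and the metal-sensing factor MTF1 is known to activate them. Of 23 NRF2 targets and metallothioneins, Mt1 was called (4.35%, against 0.887% of all tested genes), and 8 were higher. Mt1 was at 380, 302 and 251 in WT mouse 1 and 478, 311 and 249 in WT mouse 2, and at 458, 449 and 407 in Tnfr2-/- mouse 1 and 608, 486 and 450 in Tnfr2-/- mouse 2 (0.56, SE 0.108, adjusted p = 0.0386). The WT value of mouse 2 on day 1 lay inside the Tnfr2-/- range. The call was lost on rescaling to the same sum (adjusted p = 0.0621) and without WT mouse 1 or either Tnfr2-/- mouse (up to 0.353). Mt2 was called on day 3 alone, at 149 and 156 in WT and 474 and 732 in Tnfr2-/- libraries (1.94, adjusted p = 0.0291). Mtf1 itself, singled out after its values were seen, was lower, at 12.3 to 20.4 in WT and 7.36 to 12.7 in Tnfr2-/- libraries (-0.72, adjusted p = 0.0488). The call of Mtf1 was lost in 20 of 27 alternative settings. Among them were protein-coding transcripts alone and the fits without WT mouse 1 or either Tnfr2-/- mouse. Mtf1 lies 20.4 Mb from Tnfrsf1b on the same chromosome. The metal response core TGCNCNC on either strand was found 1 time before Mt1 (chr8:94178839-94179088) and 5 times before Mt2 (chr8:94172368-94172617), both on the plus strand. These counts cover the 250 bases before the annotated start alone. Bases beyond that start were not searched, so the counts do not compare the whole promoters. The core occurred in 47.2% of all genes with a promoter, in 11 of 20 genes of the list (55.0%) and in 58 of 88 called genes (65.9%). It also occurred in 18 of 23 glycolysis and hypoxia genes (78.3%). The share of all genes includes genes that were not tested here, and enrichment was not tested. The stretches before Mt1 and Mt2 are from RefSeq, with matches in capitals.
Mt1: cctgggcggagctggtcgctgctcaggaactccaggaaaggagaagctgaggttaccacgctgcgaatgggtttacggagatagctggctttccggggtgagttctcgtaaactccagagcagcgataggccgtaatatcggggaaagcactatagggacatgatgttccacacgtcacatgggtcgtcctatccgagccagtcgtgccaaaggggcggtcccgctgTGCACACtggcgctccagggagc
Mt2: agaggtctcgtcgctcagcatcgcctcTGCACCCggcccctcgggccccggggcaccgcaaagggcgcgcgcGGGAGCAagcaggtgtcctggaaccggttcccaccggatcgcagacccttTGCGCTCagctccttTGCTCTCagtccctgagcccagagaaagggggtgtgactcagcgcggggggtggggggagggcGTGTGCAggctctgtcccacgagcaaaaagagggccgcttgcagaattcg

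MHC class I genes present peptides to T cells. Of 21 class I and antigen processing genes, 3 were called and all 3 were lower non-classical genes of the H2-Q region, beside 0.38% called lower over all tested genes. H2-Q7 fell from 19.7 ± 6.47 to 5.85 ± 2.72 (SD, n = 6; -1.67, SE 0.334, adjusted p = 0.0439) without overlap, H2-Q6 from 9.77 ± 5.88 to 2.63 ± 1.52 (adjusted p = 0.0460) and H2-Q4 from 47.5 ± 8.15 to 30.1 ± 7.93 (adjusted p = 0.0488). All 3 calls were lost without either Tnfr2-/- mouse (adjusted p up to 0.195, 0.388 and 0.282), and that of H2-Q4 was lost in 20 of 27 alternative settings. H2-Q4 lost its call on rescaling by the median ratio (adjusted p = 0.0523), and H2-Q4 and H2-Q7 lost theirs on protein-coding transcripts alone. The classical genes H2-K1 and H2-D1 differed by 0.05 and 0.04 (adjusted p = 0.869 and 0.909), and B2m by 0.03 (adjusted p = 0.977). H2-Q6 shares 914 bases at 95.84% identity with H2-Q7, so the division of reads among these genes is uncertain. None of 34 interferon-stimulated genes was called, and their median was 0.007. Gbp2b, an interferon-induced GTPase outside the list, was listed at 0 in all WT libraries and at 1.74 to 4.37 in Tnfr2-/- libraries (adjusted p = 0.00688).

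Of 25 DNA replication genes, 24 were lower in Tnfr2-/- colonoids, with a median of -0.214, 4 at an unadjusted p under 0.05 and none called. Mcm2 and Pcna differed by -0.23 and -0.18 (adjusted p = 0.805 and 0.524). Without WT mouse 1 the median was -0.0503. The 25 mitosis genes had a median of -0.034, and Mki67, the proliferation antigen, differed by -0.19 (adjusted p = 0.720). Myc was at 105 to 123 in WT and 101 to 137 in Tnfr2-/- libraries (0.01, adjusted p = 0.991). Among 23 stem cell and Wnt target genes none was called. Lgr5, the crypt stem cell receptor, ran from 1.66 to 15.7 in WT and from 1.23 to 6.33 in Tnfr2-/- libraries (-0.49, adjusted p = 0.615), and Notum, a secreted Wnt inhibitor, differed by 1.41 (adjusted p = 0.110).

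The 15 tested goblet cell genes had a median of -0.474, and none was called. Muc2, the gel-forming mucin, was at 12.5, 15.9 and 37.8 in WT mouse 1 but at 0.979, 0.338 and 0 in WT mouse 2, and between 0.259 and 2.02 in Tnfr2-/- libraries (adjusted p = 0.569). Reg4, a lectin of deep crypt secretory cells, was at 18.97, 10.4 and 52.4 in WT mouse 1 and listed at 0 in every library of WT mouse 2, against 0 to 4.56 in Tnfr2-/- libraries (adjusted p = 0.636). Tff3 and Spink4 split the WT mice in the same way. The median of the goblet list was -0.0191 without WT mouse 1, -0.208 with a pseudocount of 5 and -1.38 over the members with a mean of at least 5. The 40 deep secretory genes had a median of -0.263, and Ramp1, a partner of the CGRP receptor, was called higher (1.00, adjusted p = 0.0434), a call lost on rescaling to the same sum (adjusted p = 0.0558). Of 42 absorptive genes, Nt5e (the ecto-enzyme CD73, which makes adenosine) and Sprr2a3 were called higher (4.76%, against 0.507% of all tested genes called higher). Nt5e ran from 17.8 to 31.9 in WT and from 40.5 to 60.2 in Tnfr2-/- libraries (0.94, adjusted p = 0.0133). Sprr2a3, a cornified envelope protein, rose from 941 ± 395 to 2034 ± 1153 (adjusted p = 0.00688), and the length-weighted sum over it and its near-copies Sprr2a1 and Sprr2a2 was 1.504 times the WT sum. It was also the called one of 16 cornified envelope genes (6.25%), whose median was 0.076. Car2, the carbonic anhydrase of colonocytes, differed by 0.23 (adjusted p = 0.553).

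**Figure D5:**
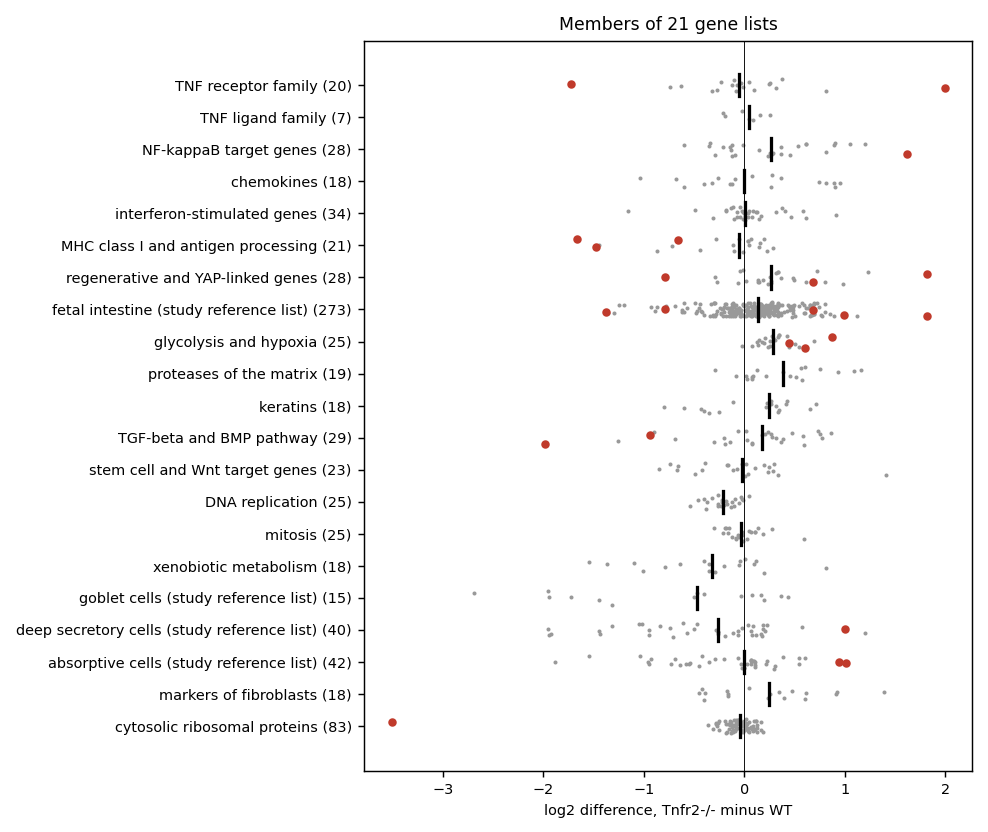
Log2 difference between genotypes (horizontal axis) for each tested member of 21 gene lists (vertical axis, with the number of tested members); large red points are called genes and black bars are medians. Glycolysis and hypoxia genes lie almost all to the right of 0 with a median of 0.287, and DNA replication genes almost all to the left with a median of -0.214.

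Of 48 lists with tested members, 18 held a called gene. Over all tested genes, 0.887% were called. Gdf15, a stress-induced cytokine and the called one of 19 p53 targets, was at 14.6, 47.8 and 58.0 in WT mouse 1 and 24.8, 77.6 and 60.3 in WT mouse 2, and at 38.1, 208 and 166 in Tnfr2-/- mouse 1 and 45.7, 158 and 145 in Tnfr2-/- mouse 2 (1.34, SE 0.167, adjusted p = 0.00348). Within each day the genotypes did not overlap. Dusp4, a MAP kinase phosphatase and the called one of 26 immediate early genes, rose from 29.2 ± 7.67 to 49.9 ± 5.03 without overlap (adjusted p = 0.0379). Of 14 tested imprinted genes, Plagl1 was the one called, and the median was -0.022. Of the 12 genes the study followed, Tnfrsf1b was the one called. Of 19 matrix proteases and inhibitors, 17 were higher with a median of 0.386 (0.121 without WT mouse 1), and none was called. Mmp7 (matrilysin) differed by 1.16 (adjusted p = 0.139). Of 83 cytosolic ribosomal protein genes, Rpl34 was the one called and the median was -0.043.

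The 30 lists without a call had medians between -0.474 and 0.525. They included 18 chemokines (median -0.004), 22 cell death genes (-0.008), 12 genes of the EGF family and its receptors (0.069), 12 Notch genes (0.273), 18 keratins (0.246), 16 tight junction genes (0.104) and 26 basement membrane and integrin genes (0.2). The 17 heat shock genes (-0.004), 24 genes of the integrated stress and unfolded protein responses (0.069), 28 genes of cholesterol and fatty acid synthesis (0.006) and 13 mitochondrially encoded genes (0.003) lay near 0. The 18 xenobiotic metabolism genes had a median of -0.322, 16 enteroendocrine genes -0.263, 2 tuft cell genes -0.006, and the 3 progenitor lists of the study between -0.132 and -0.028. Of 8 muscle and glia markers, 2 passed the filter with a median of 0.525, and 2 endothelial markers did so with 0.053.

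Taken 1 day at a time, with 2 libraries per genotype, fewer genes were called, namely 8 on day 1 (0.0596%), 11 on day 2 (0.082%) and 22 on day 3 (0.164%). At an unadjusted p under 0.05 there were 921, 1076 and 1258. Gm46223, Gm5900, Rpl34 and Rpl34-ps1 were called on all 3 days. Gm46223, a processed pseudogene that shares 673 bases at 99.7% identity with Gm42427, was among the genes of lowest p on day 1, at 906 and 1233 in WT and 3779 and 3654 in Tnfr2-/- libraries (1.81, adjusted p = 0.00793). Ces1f, a liver-type carboxylesterase, led the protein-coding genes on day 2, at 54.1 and 52.5 in WT and 9.67 and 10.5 in Tnfr2-/- libraries (-2.30, adjusted p = 0.00350). Penk did so on day 3 (2.97, adjusted p = 0.000163).

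Day 3 held several called genes that were not called over the 3 days together, singled out here after their values were seen. Il1rl1 (ST2), the receptor for the alarmin IL-33, was at 943, 86.5 and 9.41 in WT mouse 1 and 989, 169 and 19.1 in WT mouse 2 on days 1, 2 and 3. In Tnfr2-/- colonoids it was at 802, 167 and 192 in mouse 1 and 820, 238 and 287 in mouse 2. On day 1 both Tnfr2-/- values lay slightly below both WT values, and on day 3 both Tnfr2-/- values lay far above both WT values (4.03, adjusted p = 0.00208). Mmp13 (collagenase 3) was at 320, 18.7 and 8.04 in WT mouse 1 and 438, 36.0 and 10.3 in WT mouse 2. Its Tnfr2-/- values were 346 and 34.2 in mouse 1 on days 1 and 2, and 295, 41.7 and 102 in mouse 2 on days 1, 2 and 3, with mouse 1 between mouse 2 and both WT mice on day 3 (day 3 difference 2.97, adjusted p = 0.00700). Both WT values were lower on day 3 than on day 2, and both Tnfr2-/- values were higher. Cck, the peptide hormone cholecystokinin, was at 20.4 and 31.4 in WT and 212 and 184 in Tnfr2-/- libraries on day 3 (2.92, adjusted p = 0.0169). Ereg (epiregulin, a ligand of the EGF receptor) was at 59.9 and 79.8 against 165 and 164 (1.24, adjusted p = 0.0169), after -0.25 and -0.23 on days 1 and 2.

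The change of the genotype difference from day 1 to day 3 was tested directly and gave no call (0%), with 917 genes at an unadjusted p under 0.05. Il1rl1 came closest (change 4.28, adjusted p = 0.0641), followed by Mmp13, Penk, Ereg and Adck5 at an adjusted p of 0.0996. The day 3 difference of Adck5 reversed its direction on protein-coding transcripts alone. A change of the genotype difference between days was therefore not shown for these genes.

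By the same reading of the replicate numbers, the late libraries came from the same mice. They are then a further reading of these animals and not new evidence. Of the 119 early genes, 111 differed in the same direction on days 5 and 7 and 67 were also called there. The shares of all tested genes that did so were not counted, so these counts do not measure persistence. The direct test of late minus early called 47 of 13539 genes (0.347%), with Penk and Bmp2 among the early genes. Penk differed by 1.85 early and 3.65 late (change 1.81, adjusted p = 0.0348). Bmp2 differed by -0.94 early and 0.52 late (change 1.47, adjusted p = 0.0407). Both changes lost their call without the mouse block (adjusted p = 0.0543 for Penk and 0.0659 for Bmp2), on means of each mouse (0.135 and 0.203) and in most fits without 1 library (up to 0.115 and 0.132). Other early differences had late values side by side of -2.60 and -2.43 for Plagl1, 1.99 and 3.83 for Tnfrsf9, 1.82 and 2.66 for Spp1, 1.62 and 0.87 for Saa3, -1.97 and -1.76 for Tbx2, and 0.60 and -0.11 for Pfkl.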

How the data were processed

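RNA of mouse colonoids was sequenced in 20 libraries with an Illumina stranded mRNA kit as single-end reads, and the 12 libraries of days 1, 2 and 3 were analysed here. Per the submitters' processing notes, the authors used CASAVA, kallisto and sleuth with mm10. They deposited 1 table with a signal per transcript and library, the TPM divided by a size factor. Columns of the authors' p-values, q-values, test statistics, means and variances were not used.

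Of 113974 lines, 781 repeats were dropped, and the 113193 transcripts were summed per gene symbol (35240 symbols). Transcripts without a gene held at most 0.0989% of a library. Genes with a mean of at least 1 over the 12 libraries (13417) were tested on log2(value + 1) by limma (version 3.58.1, R 4.3.3). The fit used the trend option for the variance, day and genotype as terms and the mouse as a correlated block (correlation 0.0661). P-values were adjusted by Benjamini-Hochberg over all genes, and a gene was called at an adjusted p under 0.05. All adjusted p-values in the text come from limma. Days, the change from day 1 to day 3, and late minus early (all 20 libraries) were contrasts between group means. With 2 mice per genotype, as read from the replicate numbers, p-values rest largely on the spread between libraries of the same mice. The deposited values hold no read counts, so depth per library is unknown. The scripts were tested on simulated data.

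Of called genes with the same sign on each day and a mean of at least 5 in the higher genotype, the 12 largest rises and 12 largest falls were named, with the 2 largest predicted genes or pseudogenes each way, the called members of each list, the 3 genes of lowest p per day, and the genes the study followed. The comparison and the lists were chosen with earlier results of these data known. Several lists are the study's own cell type and fetal lists. Transcripts were compared with blastn 2.17.0 on GENCODE M21, which held 98.498% of the gene identifiers. Tables were handled with Python 3.11.15, pandas 2.3.3 and numpy 2.4.6, and figures drawn with matplotlib 3.10.9. Alternatives were other blocks, pseudocounts, filters and scalings, Ensembl genes, leaving out each library and mouse, and, chosen after seeing the data, protein-coding transcripts alone.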

Additional observations from a re-analysis of the deposited data

Results flagged for a closer look

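In 11 of 194 groups of 6 libraries, 1 library lay apart from the other 5 by Dixon's test, and chance alone gives about 1 in 20. Among genes near 0 in 1 genotype these were Zfp990 at 1.095 in WT mouse 2 on day 1, Gm5900 at 0.638 in WT mouse 1 on day 2 and Znf41-ps at 0.533 in Tnfr2-/- mouse 2 on day 1. In WT libraries, Anpep stood at 6.79 in mouse 2 on day 2 and Klk6 at 24.98 in mouse 1 on day 2. WT mouse 1 on day 3 was apart for both Lgr5 at 15.7 and Reg4 at 52.4. In Tnfr2-/- mouse 2, Plagl1 at 3.79 and Steap3 at 16.4 stood apart on day 2, Pgm5 at 12.5 on day 1 and Fgf1 at 3.395 on day 3.

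In the direct test of late against early days, the genotype difference changed by 1.81 for Penk (limma, adjusted p = 0.0348) and by 1.47 for Bmp2 (limma, adjusted p = 0.0407). Both tests used the same 4 mice, and both calls were lost without the mouse block (limma, adjusted p = 0.0543 and 0.0659), on means of each mouse (0.135 and 0.203) and in most fits without 1 library.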

How the results depend on the processing

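The count of 119 called genes was 187 without the mouse block, 259 with a replicate block and 5 on means over the days per mouse. Replicate numbers did not pair the samples (correlations of 0.0698, 0.0177 and 0.0418 on days 1, 2 and 3). The replicate block gave 14 calls on day 1, 54 on day 3, 3 for the change between them and 96 for late minus early. Rescaling to the same sum gave 110 calls, of which 48 were higher and 62 lower (43.64% higher, against 57.14%). Leaving out a library or mouse gave 20 to 896 calls. Of the Tnfr2-/- animals, removing mouse 1 left 20 and removing mouse 2 left 26. Of the WT animals, removing mouse 1 gave 212 and removing mouse 2 gave 896. Among single libraries, the count was 63, 69 and 48 without Tnfr2-/- mouse 1 on days 1, 2 and 3, 67, 49 and 57 without mouse 2, 54 and 62 without WT mouse 1 on days 1 and 2, and 75 without WT mouse 2 on day 1. The cause was not tested.

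With no filter on low values the counts were 32, 41 and 39 on days 1, 2 and 3 and 20 for the change, which was 1 with a mean of at least 5. With protein-coding transcripts alone they were 2 on day 1 and 2 on day 2, and 2 genes reversed, Ccdc191 on day 1 from 2.65 to -0.71 and Adck5 on day 3 from -1.50 to 1.30. Leave-outs ranged from 2 to 12 on day 1, 1 to 12 on day 2, 2 to 57 on day 3, 0 to 5 for the change and 3 to 217 for late minus early, which was 20 without the mouse block and 2 on means of each mouse. Tnfrsf1b kept its direction, at -1.72 on mouse means (limma, adjusted p = 0.0991) and between -1.84 and -1.62 in leave-outs. Of 2388 values for 86 named genes over 28 settings, 1636 kept the call, 752 lost it and 0 reversed. Of the 119 calls, 21 were lost under a rescaling and 29 with protein-coding transcripts alone. The deposited values give no depth per library.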
